A study of Homo sapiens with 7 samples.

Results

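The 4 loci described here lie inside genes of autophagy and of lysosomal nutrient sensing: MAP1LC3B, RRAGD, TPCN2 and TECPR2. Their candidate regulatory regions were tested by lentiMPRA, a massively parallel reporter assay delivered by lentivirus. Each sequence drives a barcoded transcript from an integrated vector, and its activity is the barcode's abundance in RNA relative to genomic DNA (gDNA). The cells were C4-2B, an established human line of metastatic prostate cancer epithelium, kept in ordinary serum-containing medium with no further treatment named in the labels. Of the 7 libraries, 1 linked barcodes to sequences, 3 were gDNA and 3 were RNA, and the gDNA and RNA were taken 48 hours after transduction. A single cell line was used, and nothing in the labels says whether the 3 replicates were separate transductions.

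Members were found by region coordinates in the authors' 2 deposited tables. They came to 10 of 1383 entries, from 4 of 380 regions. Of these, 8 of 1025 were mutant constructs compared with their wild-type sequence and 2 of 358 were wild-type constructs compared with scrambled sequence. A construct here is a sequence carrying 1 tested mutation of a region, or the wild-type counterpart filed under the same name. The loci were selected on measured values: MAP1LC3B, RRAGD and TPCN2 on a mutant estimate at the edge of the mutant table, and TECPR2 on a wild-type estimate near the top of the other. Those values and the others from the same table are given as a description. The TECPR2 mutants come from the contrast that did not choose that locus, although both contrasts use wild-type reads. The sources state no inhibitor, starvation or other stimulus of autophagy, so each value compares reporter activity between sequences with no such stimulus named.

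Autophagy encloses cytoplasm in a double membrane that then fuses with the lysosome. MAP1LC3B is a ubiquitin-like protein that is joined to lipid on the growing membrane and is the usual marker of autophagosomes, and TECPR2 is a protein of the same route that is mutated in an inherited neuropathy. RRAGD is a Rag GTPase, which works in a pair with RRAGA or RRAGB to bring the growth kinase complex mTORC1 to the lysosome when amino acids are plentiful. TPCN2 is an ion channel of endosomes and lysosomes. A region inside one of these genes need not control that gene, and the assay reads the sequence away from its own locus.

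All 4 regions lay within the bounds of their gene, in hg38 coordinates. The MAP1LC3B region (chr16:87396942-87400020) spanned 3079 bases and began 4606 bases past the start of the gene. The TECPR2 region (chr14:102444317-102446357) spanned 2041 bases and began 81376 bases past the start of its gene. The RRAGD region (chr6:89371867-89373220) spanned 1354 bases and began 7251 bases from the lower-coordinate end of the gene. The TPCN2 region (chr11:69083084-69083175) was the short one, at 92 bases against a median of 946 over all regions, with 23 regions shorter, and it began 34152 bases past the gene's start. None of the 4 overlapped any promoter window of the RefSeq promoter table (250 bases before to 50 after a start), in which MAP1LC3B, TPCN2 and TECPR2 have an entry and RRAGD has none. Whether they are exonic or intronic was not resolved here.

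The TPCN2 region ends at the base before the hairpin of the microRNA gene MIR3164, which RefSeq (GRCh38.p14) places at chr11:69083176-69083258. The mature microRNA starts 10 bases past the end of the region, on the plus strand (chr11:69083185-69083206). Its sequence is shown because it is the nearest annotated gene to any member apart from the genes that hold them, with the seed, bases 2 to 8, in capitals.
hsa-miR-3164: uGUGACUUuaagggaaauggcg
The tested TPCN2 mutations lie in the region and so outside both the hairpin and this mature sequence. No microRNA level was measured in these libraries.

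The mutants were of 2 kinds. A deletion of 1 base was carried by 4 members, 2 at MAP1LC3B, 1 at RRAGD and 1 at TECPR2. An A-to-G or T-to-C change, the same exchange read on either strand, was carried by the other 4, 2 at TPCN2 and 2 at TECPR2. In the whole mutant table these kinds made up 6.24% and 31.4% of mutants. Deletions of 1 base were called in 39 of 64 cases and the A-to-G or T-to-C changes in 185 of 322, where a call is an adjusted p under 0.05 in the authors' deposited mutant table.

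In the authors' deposited mutant table, 4 of the 8 members were called higher than wild-type, 3 lower and 1 neither way. The background in that table was high: 56.6% of all 1025 mutants were called, 29.5% higher and 27.1% lower. Since mutants helped to choose 3 of the loci, nothing is read from the share of members called or from the medians that follow. The median estimate over the 8 members was 0.32 in the authors' deposited mutant table, against 0.02 over all mutants. Their median size, without regard to sign, was 0.95 against 0.31, and their median standard error 0.26 against 0.12. An estimate is taken here as an odds ratio (RNA over gDNA) on a natural log scale and is printed ± its standard error. No source used here states its log base or its direction, which were read from the model and the comparison that the tables name. A fold is the exponential of its size, and each 95% interval is a normal interval from that error.

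At MAP1LC3B, the autophagosome marker gene, one deletion stood at -4.11 ± 1.14 in the authors' deposited mutant table, or 60.7-fold lower odds than wild-type. It was the lowest of all called mutants, the value for which the locus was chosen. Its 95% interval ran from 6.51- to 565-fold lower, which spans both a moderate and a very large change. The next lowest called mutants of the authors' deposited mutant table stood at -3.77 ± 0.72 and -3.40 ± 0.82. The other MAP1LC3B deletion lay 1682 bases away and stood at 0.15 ± 0.11 in the authors' deposited mutant table, or 1.17-fold higher (95% interval 0.946- to 1.44-fold), and was not called (adjusted p = 0.213). The errors of these deletions differed by 10.6 times although both belong to the same region. Their estimates lay 4.26 ± 1.14 apart, a 95% interval of 2.02 to 6.50.

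At RRAGD, the Rag GTPase gene, the only tested mutant was a deletion at 4.24 ± 1.13 in the authors' deposited mutant table, or 69.6-fold higher odds. This was the highest of all called mutants, the value for which the locus was chosen, with a 95% interval of 7.57- to 639-fold. The next called mutants of the authors' deposited mutant table stood at 4.13 ± 1.14 and 3.59 ± 1.18. With 1 mutant in the region, as in 151 of 376 regions of the mutant table, no other RRAGD sequence can be set beside it.

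The RRAGD and MAP1LC3B deletions moved in opposite directions by nearly the same size and with nearly the same error. Ordered by standard error from the largest, they stood at places 4 and 3 of the 580 called mutants. Among all 1025 mutants of the authors' deposited mutant table, 17 had a standard error of 1 or more, and 4 of those were called. The remaining 13 had estimates beyond 10 in size, and none of them was called. Of the 4 called, 3 were deletions of 1 base, of which 2 are the members described. By the size of z, which sets the estimate against its error, RRAGD stood at place 348 and MAP1LC3B at place 374 of 1025. Both members were thus first or last among called mutants by estimate, and far from the top when the error was counted.

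At TPCN2, the endolysosomal channel gene, both mutants carried an A-to-G or T-to-C change and their sites lay 15 bases apart. One stood at -2.29 ± 0.33 in the authors' deposited mutant table, or 9.86-fold lower odds than wild-type (95% interval 5.15- to 18.9-fold). The other stood at 0.48 ± 0.10 in the authors' deposited mutant table, or 1.61-fold higher (95% interval 1.34- to 1.95-fold). Both were called, in opposite directions, and their intervals did not overlap. The difference between them was 2.77 ± 0.35, or 15.9-fold in odds (95% interval 8.09- to 31.4-fold), with errors taken as independent. The lower TPCN2 mutant stood at place 77 of 1025 by the size of z, the nearest to the top of any mutant described here. It stood at place 10 of the 580 called mutants, ordered from the lowest estimate. When each region kept only its called mutant of smallest p, it was at place 7. Its neighbours there stood at -2.62 ± 0.36 and -2.27 ± 0.48 in the authors' deposited mutant table.

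Opposite calls at close sites were common in the mutant table, where 302 mutants were called higher and 278 lower. The share of opposite pairs is therefore not read as a feature of close sites. Of 580 pairs of mutants of the same region whose sites lay at most 50 bases apart, 182 had both members called, and 86 of those (47.3%) were called in opposite directions. Ordered by the size of the difference, the TPCN2 pair was at place 5 of these 86 and the TECPR2 pair described next at place 26, with a median of 1.05 over the 86. The place of the TPCN2 pair is a description, since most of its difference is the estimate on which the locus was selected. Pairs that share a mutant are counted separately here.

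TECPR2 was the only one of the 4 loci with wild-type constructs, 2 of them, in the tables used, so its mutants alone can be set beside an activity against scrambled sequence. The authors' deposited wild-type table placed one of them at 1.45 ± 0.44, or 4.25-fold higher odds than scrambled (95% interval 1.79- to 10.1-fold). It stood at place 12 of the 223 called wild-type constructs, ordered from the highest estimate, and is the value for which the locus was chosen. When each region kept only its called construct of smallest p, it was at place 4. Its neighbours there stood at 2.24 ± 0.36 and 1.44 ± 0.43 in the authors' deposited wild-type table. The other TECPR2 wild-type construct, whose site lay 47 bases away, stood at -0.08 ± 0.07 in the authors' deposited wild-type table and was not called (adjusted p = 0.258). Its 95% interval of -0.21 to 0.04 spans 0. These wild-type sequences of 1 region differed by 1.53 ± 0.45, or 4.63-fold (95% interval 1.93- to 11.1-fold), with errors taken as independent although both share the scrambled comparator. Of all 358 wild-type constructs, 62.3% were called, 34.1% higher and 28.2% lower, and of the 2 members 1 was called higher, 0 lower and 1 neither way.

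The authors' deposited mutant table called all 3 TECPR2 mutants, 2 higher and 1 lower than wild-type. Of all 1025 mutants there, 56.6% were called, 29.5% higher and 27.1% lower, so nothing is read from this count. One A-to-G or T-to-C change was at the construct whose wild-type sequence was called higher than scrambled. It stood at 0.99 ± 0.18 in the authors' deposited mutant table, or 2.69-fold higher (95% interval 1.87- to 3.86-fold, adjusted p = 5.32e-07). At the construct whose wild-type sequence was not called, the same kind of change stood at -0.30 ± 0.07 in the authors' deposited mutant table, or 1.35-fold lower (95% interval 1.18- to 1.56-fold, adjusted p = 6.98e-05). These changes, 47 bases apart, differed by 1.29 ± 0.20, or 3.64-fold (95% interval 2.47- to 5.37-fold). The third TECPR2 mutant, a deletion 874 bases from the nearer of them, stood at 0.91 ± 0.33 in the authors' deposited mutant table, or 2.48-fold higher (95% interval 1.31- to 4.72-fold, adjusted p = 0.0113). The higher substitution lay 0.08 ± 0.38 above this deletion, with a 95% interval of -0.66 to 0.82 on the log scale. The interval thus places the deletion from 2.27-fold below that substitution to 1.93-fold above it. From the lower substitution the deletion differed by 1.21 ± 0.34, or 3.36-fold (95% interval 1.74- to 6.49-fold).

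Adding the wild-type and mutant estimates gives the mutant's activity against scrambled sequence. For the TECPR2 construct with the active wild-type sequence the sum was 2.44 ± 0.48, or 11.4-fold above scrambled, with errors taken as independent. This sum contains the estimate of 1.45 on which the locus was selected and is given as a description. For the other construct the sum was -0.39 ± 0.10, or 1.47-fold below scrambled (95% interval -0.58 to -0.20 on the log scale). Wild-type reads enter the 2 estimates with opposite signs, so reads shared between them would make these errors smaller. Both sums are arithmetic on the authors' deposited estimates, and no mutant was compared with scrambled sequence directly.

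Mutants at MAP1LC3B, RRAGD and TPCN2, and the TECPR2 deletion, had no entry of the same name in the wild-type table used. Such an entry was present for 324 of the 1025 mutants (31.6%). For these 6 members a lower or higher estimate is therefore relative to a wild-type activity that is unknown here: whether the MAP1LC3B deletion lowered an active sequence, or RRAGD's raised an inactive one, cannot be told from these values.

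Over the 3 loci with more than 1 mutant, TPCN2 and TECPR2 held calls in both directions and MAP1LC3B in 1. Over all loci, 83 of the 225 regions with at least 2 mutants (36.9%) held both.

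Of 182 other genes of autophagy, the lysosome and amino acid sensing by mTORC1, 1 was the overlapping or nearest gene of a tested region. This was RPTOR, the subunit of mTORC1 that the Rag GTPases bind (chr17:80785327-80787290, inside the gene). One RPTOR mutant was called lower at -0.40 ± 0.11 in the authors' deposited mutant table (adjusted p = 0.000438). The other RPTOR mutant stood at 0.19 ± 0.14 in the authors' deposited mutant table and was not called (adjusted p = 0.225). No wild-type construct of these 182 genes was in the table used.

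These calls rest on the error of the authors' model alone. Bonferroni adjustment ended those of the MAP1LC3B, RRAGD and TECPR2 deletions and of the TECPR2 wild-type construct, and none of the 8 member calls was kept when z was divided by its robust spread over the table, which was 3.92 for mutants and 4.12 for wild-type constructs. That scaling left 2 of the 580 mutant calls and 4 of the 223 wild-type calls in the whole tables. The spread was taken over all constructs, called ones included, so it holds any real effects as well as error. The scaling therefore cannot tell which calls are sound.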

How the data were processed

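Activity was measured by lentiMPRA in C4-2B cells, with 3 gDNA and 3 RNA libraries. The submitters' processing notes name Bowtie2 and hg38, with no role or version. Read filters, barcodes per construct, construct length and the scrambled sequence were not given in the sources used. The authors deposited 2 tables of comparisons, so counts, depth and the spread between replicates are unknown. Per the file headers, the estimate comes from a logit model and is taken as a natural log of odds. The z value, a score, and the p-value and q-value of each construct were also deposited by the authors. Recomputed with Python 3.11.15, SciPy 1.17.1 and pandas 2.3.3, the deposited p-values matched a two-sided normal test of z, and the q-values matched Benjamini-Hochberg adjustment over the whole table, within 3.33e-16. The direction is read from the way the tables are named, and no source used here states it or the log base. The standard error is the estimate divided by z. Construct starts were raised by 1 base to count from 1. Genes came from RefSeq GRCh38.p14, by overlap or the nearest protein-coding gene, and all 182 listed genes matched it. The adjustment code was tested on simulated data.

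Every construct of the 4 loci was named, whatever its value; of the listed genes, those with a called construct. The loci and the gene list were chosen with earlier results of these data known. Alternatives were Bonferroni adjustment, an adjusted p under 0.01, z divided by its robust SD, leaving out estimates beyond 10, a fold of at least 1.5 and leaving out each locus. Tested base positions are not printed, and the construct sequences are not shown here.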

Additional observations from a re-analysis of the deposited data

How the results depend on the processing

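Of the 10 member entries, 10 stayed on their side of the threshold without estimates beyond 10, 9 with an adjusted p under 0.01 (the TECPR2 deletion was lost, at 0.0113), 9 with a fold of at least 1.5 (the lower TECPR2 mutant was lost), 6 with Bonferroni adjustment and 2 with z divided by its robust SD. The 7 mutant calls became 4 with Bonferroni adjustment, 4 without TECPR2 and 0 with scaled z. The 1 wild-type call became 0 under the same 3 settings. The 1 RPTOR call became 0 with Bonferroni adjustment, with scaled z and with a fold of at least 1.5. The cause was not tested. No paired analysis was possible because the deposited tables give 1 value per construct over all replicates. Leaving out a replicate could not be run for the same reason. Depth is unknown, so what it limits could not be measured.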
